A study of Homo sapiens with 8 samples.

Results

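A set of 8 transcripts was abundant in parental MEL202 cells and far lower in at least 1 line derived from them. They are HTN1, HTN3, FMN2, SPP1, MFAP2, SYNPR, AQP9 and LUM, 8 of 29188 gene names in the table, and each is represented by the locus with the highest mean over the 8 libraries. They were picked as the largest falls of the knockout line or a degron line against parental cells, so their difference from parental cells is a description and carries no test. MEL202 is a human uveal melanoma line that carries a mutation in SF3B1, which encodes a core subunit of the U2 small nuclear ribonucleoprotein. RNA was sequenced from 4 lines, each with and without Shld, with 1 library for each of the 8 combinations. Shld is a small ligand that protects a destabilising domain from degradation.

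The parental cells carry no knock-in by their label. The mutant degron line (DD-mut-SF3B1) carries the destabilising domain on mutant SF3B1 and the wildtype degron line (DD-wt-SF3B1) carries it on wildtype SF3B1; both are labelled 2 days. The knockout line (mut-SF3B1 KO) has the mutant allele knocked out and is also labelled 2 days. Its column names add a destabilising domain on wildtype SF3B1 and give 4 days without Shld, as does the parental column without Shld, so the genotype and time of the knockout line differ between the sources. The labels list each line under the tag clone, and how many clones stand behind a line is not given in the sources used here. With 1 line of each kind, the edit to SF3B1 and the history of the line cannot be told apart. The 2 libraries of a line differ in Shld and are not replicates, so each line is given by both values.

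Most of these genes encode secreted or membrane proteins. HTN1 and HTN3 encode histatins, histidine-rich peptides known from saliva, and lie side by side in the cluster of secretory calcium-binding phosphoprotein genes. SPP1 encodes osteopontin, a secreted phosphoprotein that binds integrins and CD44 and is a known tumour-associated matrix protein. LUM encodes lumican, a small leucine-rich proteoglycan that orders collagen fibrils in the cornea and other matrices, and MFAP2 encodes a glycoprotein of elastin-associated microfibrils. FMN2 is a formin that nucleates actin filaments with Spire proteins, SYNPR is synaptoporin, a synaptic vesicle protein of the synaptophysin family, and AQP9 is a channel for water and glycerol.

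Melanocyte genes were present in every line. The authors' values are FPKM, a fragment count scaled by transcript length and library size, here rescaled so that the 75th percentile is 10 in every library, and they summed to between 762679 and 961994 per library. All 11 melanocyte genes in the table, among them MITF, SOX10 and PMEL, had a parental mean of at least 1, and PMEL stood between 2365 and 7945 in the 8 libraries. SF3B1 itself was listed at 266 and 239.8 in parental cells, 188 and 200.6 in wildtype degron cells, 248 and 252 in mutant degron cells, and 158 and 138 in the knockout line (with and without Shld, in that order throughout). Absolute depth is unknown; judged from low values, 1 unit stood for 1.05 to 1.48 times the fragments it stood for in parental cells with Shld, most in the mutant degron and knockout libraries with Shld.

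A transcript was called lost in a line where the higher of its 2 libraries was at most 25% of the lower parental library. In the knockout line 8 of the 8 genes were lost, in the mutant degron line 4 (HTN1, HTN3, FMN2 and SPP1) and in the wildtype degron line 1 (SYNPR). Over the 12349 gene names with a parental mean of at least 1, 1.7% were lost in the knockout line, 0.713% in mutant degron cells and 0.275% in wildtype degron cells; since the genes were picked on this contrast, nothing is read from the gap. Of the 210 names lost in the knockout line, 57 (27.1%) were also lost in the mutant degron line and 13 (6.19%) were lost with wildtype degron cells. HTN1, HTN3, FMN2 and SPP1 shared their loss between the knockout and mutant degron lines alone, as 0.389% of names did, and 0.0729% of names were lost in all 3 derived lines, 0 of the 8 genes among them. All 8 were lost in the knockout line, so none could count as lost in a degron line alone. Of names, 0.211% were lost in the mutant degron line alone, 0.13% in the wildtype one alone and 0.0405% in both degron lines alone. None of the 8 was raised at least 4-fold in any line, which a loss fixes in advance for its line. Over names, 0.413% were so raised in the knockout line, 0.194% in the mutant degron line and 0% in the wildtype degron line.

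In the knockout line both libraries were below both parental libraries for 8 of the 8 genes, as the rule for a loss requires. Of names, 37.5% were so (30.1% above). For the mutant degron line 6 were below and 2 above (background 39.2% and 28.8%), and for the wildtype degron line 5 were below and 1 above (38.5% and 36.6%). The genes were picked on these differences, so nothing is read from the gaps to the background. The losses are described in 4 arrangements: shared with the mutant degron line, graded over all derived lines, found in the knockout line with higher levels in both degron lines, and shared with the wildtype degron line. The shared and graded groups are not distinct orders of lines. HTN3 and FMN2, shared with the mutant degron line, had the same order as AQP9 and LUM, with all lines apart. Only the limit for a loss divides them, at 19.8% for FMN2 and 26.9% for AQP9 in the mutant degron line.

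**Figure D1:**
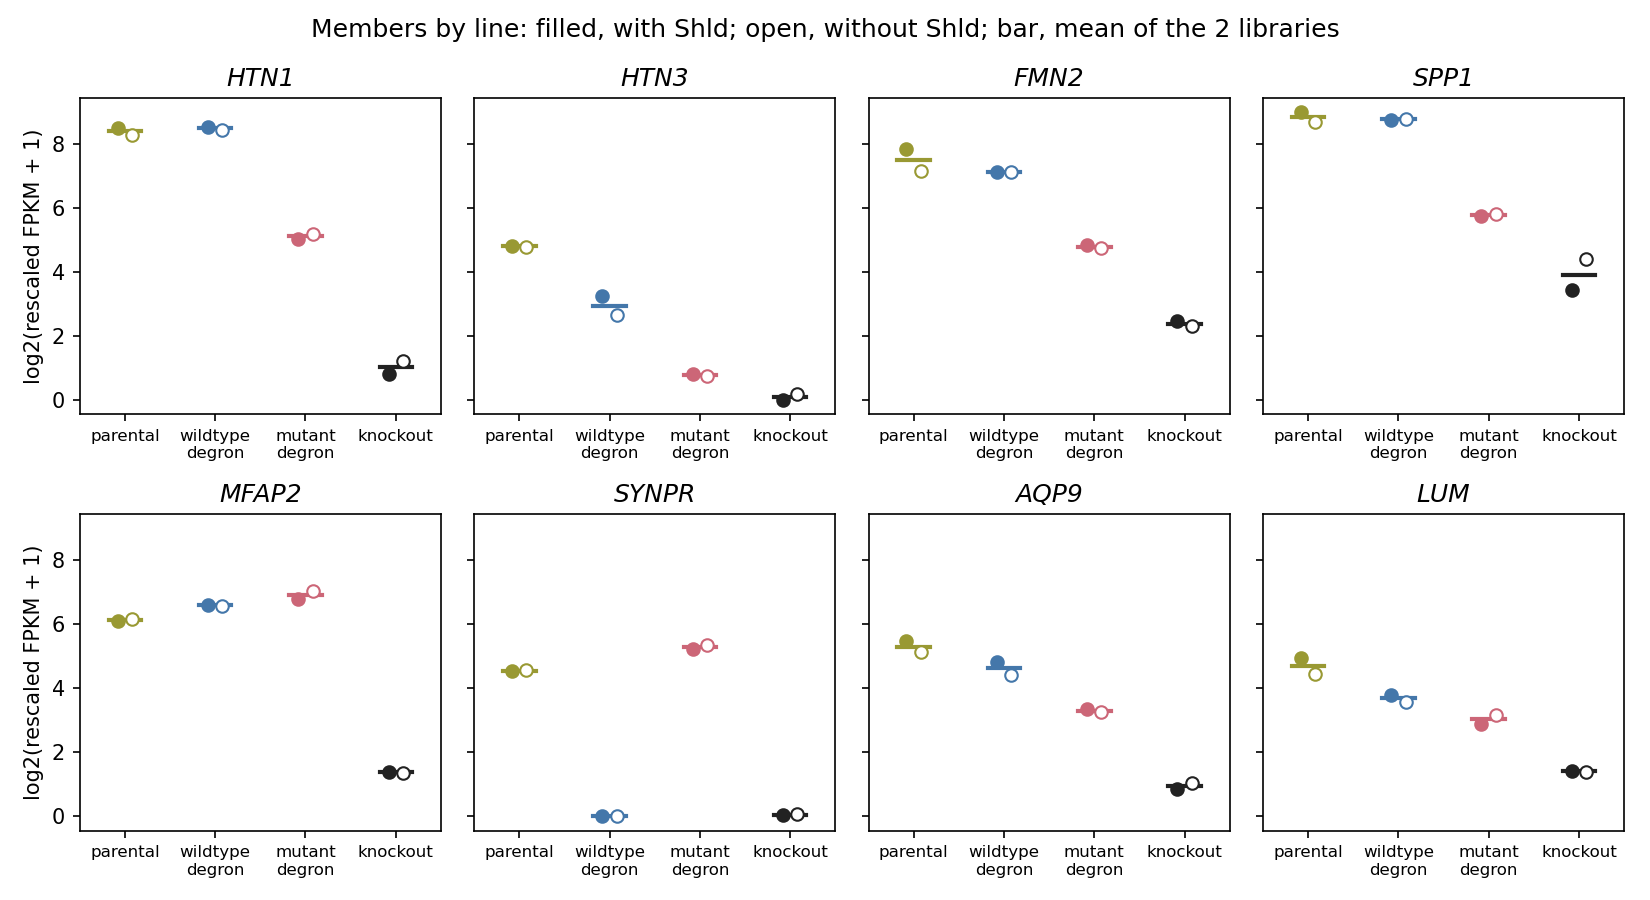
Level of each of the 8 transcripts as log2(rescaled FPKM + 1) by line; filled points are libraries with Shld, open points libraries without Shld, and the bar is their mean. HTN1 stays level in the wildtype degron line and steps down through the mutant degron and knockout lines, SYNPR is at or near 0 in the wildtype degron and knockout lines, and MFAP2 is low in the knockout line and above parental in both degron lines.

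HTN1 had the largest difference of the 8 genes in the knockout line on the log2(value + 1) scale. As a share of the parental mean, SYNPR (0.153%) and HTN3 (0.252%), both with values near 0 there, were lower than HTN1 (0.312%). It was listed at 362 and 312 in parental cells, 367 and 347 in wildtype degron cells, 31.8 and 35.4 in mutant degron cells, and 0.754 and 1.35 in the knockout line. The parental and wildtype degron libraries overlapped, and the other lines stood apart from them and from each other. Mean levels were 10.0-fold lower in the mutant degron line and 321-fold lower in the knockout line than in parental cells, which is a difference of -7.38 on the log2(value + 1) scale used for every log2 difference here, a scale that understates the change of low genes.

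HTN3 was less abundant and followed its neighbour only in part. Its levels were 27.2 and 26.4 in parental cells, 8.42 and 5.26 in wildtype degron cells, 0.760 and 0.676 in mutant degron cells, and listed at 0 and 0.135 in the knockout line. All 4 lines were apart, in the order parental, wildtype degron, mutant degron, knockout. In the wildtype degron line HTN3 was thus at 25.5% of the parental mean, while HTN1 was at 106% of it.

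The 2 histatin genes are near copies, so their values are uncertain where reads match both. Their best-matching pair of protein-coding transcripts (GENCODE 29) shared 530 of 561 aligned bases, 94.5%, and the longest run without a difference was 64 bases, shorter than the 100-base reads. The 250 bases before each start site are shown because the 2 genes share this sequence and yet were at different shares of their parental level in the wildtype degron line. They are RefSeq sequence on GRCh38.p14, plus strand for both, chr4:70050188-70050437 for HTN1 and chr4:70028209-70028458 for HTN3, and not on the hg19 build that the submitters' processing notes name. Capitals mark bases with no identical counterpart in the window of the other gene.
HTN1: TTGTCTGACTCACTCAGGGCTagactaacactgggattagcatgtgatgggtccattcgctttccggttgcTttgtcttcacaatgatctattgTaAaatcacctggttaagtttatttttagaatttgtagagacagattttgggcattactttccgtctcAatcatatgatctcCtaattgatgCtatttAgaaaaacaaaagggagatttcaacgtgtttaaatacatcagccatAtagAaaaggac
HTN3: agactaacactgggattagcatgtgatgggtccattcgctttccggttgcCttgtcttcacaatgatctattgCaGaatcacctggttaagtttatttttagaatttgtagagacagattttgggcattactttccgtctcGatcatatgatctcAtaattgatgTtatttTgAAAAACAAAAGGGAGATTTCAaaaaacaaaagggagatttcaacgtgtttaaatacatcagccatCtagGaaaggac
Over 229 aligned bases 220 were identical, 96.1%, and 9 differed. HTN3 also has a run of 21 bases that HTN1 lacks, and this run equals the 21 bases that follow it. At its far end the HTN1 window begins with 21 bases that lie outside the HTN3 window.

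SPP1 was the most abundant of the 8 genes. It was listed at 505 and 409 in parental cells, 428 and 439.9 in wildtype degron cells, 53.2 and 54.8 in mutant degron cells, and 9.84 and 20.1 in the knockout line. Both wildtype degron libraries lay within the parental range, and the remaining lines were apart. The mean was 8.46-fold lower in the mutant degron line and 30.6-fold lower in the knockout line, where the 2 libraries themselves differed by 2.04-fold.

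FMN2 had the same order of lines. Levels were 230.4 and 139.9 in parental cells, 138 and 137 in wildtype degron cells, 27.7 and 25.6 in mutant degron cells, and 4.54 and 3.93 in the knockout line. The parental pair was the least even, and the wildtype degron pair lay just under its lower library, at 98.8% of it by the higher of the pair. Relative to the parental mean, the mutant degron line held 14.4% and the knockout line 2.29%.

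AQP9 and LUM were lower by steps over the derived lines. AQP9 stood at 43.3 and 33.7 in parental cells, 27.0 and 20.4 in wildtype degron cells, 9.08 and 8.45 in mutant degron cells, and 0.788 and 1.03 in the knockout line. LUM stood at 29.6 and 20.7, at 12.9 and 10.8, at 6.36 and 7.98, and at 1.66 and 1.61 in the same lines. For both genes no 2 lines overlapped, and neither met the limit for a loss in the mutant degron line. The higher mutant degron library held 26.9% of the lower parental library for AQP9 and 38.6% for LUM, against 19.8% for FMN2, the nearest gene inside the limit.

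MFAP2 was low in the knockout line and high in the degron lines. It was listed at 67.8 and 71.0 in parental cells, 96.8 and 93.0 in wildtype degron cells, 109.9 and 130.4 in mutant degron cells, and 1.62 and 1.56 in the knockout line. No 2 lines overlapped. The mean was 43.6-fold lower than parental in the knockout line and 1.73-fold higher in the mutant degron line. Of all 12349 gene names, 1.21% were lost in the knockout line and in neither degron line, as were MFAP2, AQP9 and LUM. That share covers every level in the degron lines short of a loss, and the share also higher in both was not counted.

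SYNPR was the gene whose loss the wildtype degron and knockout lines shared. It stood at 22.1 and 22.5 in parental cells and at 36.1 and 39.7 in the mutant degron line. It was listed at 0 in both wildtype degron libraries and at 0.0182 and 0.0501 in the knockout line; an exact 0 in such a table can be a failed estimate. By the column names these are the 2 lines with the destabilising domain on wildtype SF3B1. Loss in these 2 lines and not in the mutant degron line was rare, with 4 names in all (0.0324%): SYNPR, LRP1B, a lipoprotein receptor family member, a locus named MIR34A, and the unnamed transcript uc021tlg.1. The other 3 were low in parental cells, with no value over 3.02.

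**Figure D2:**
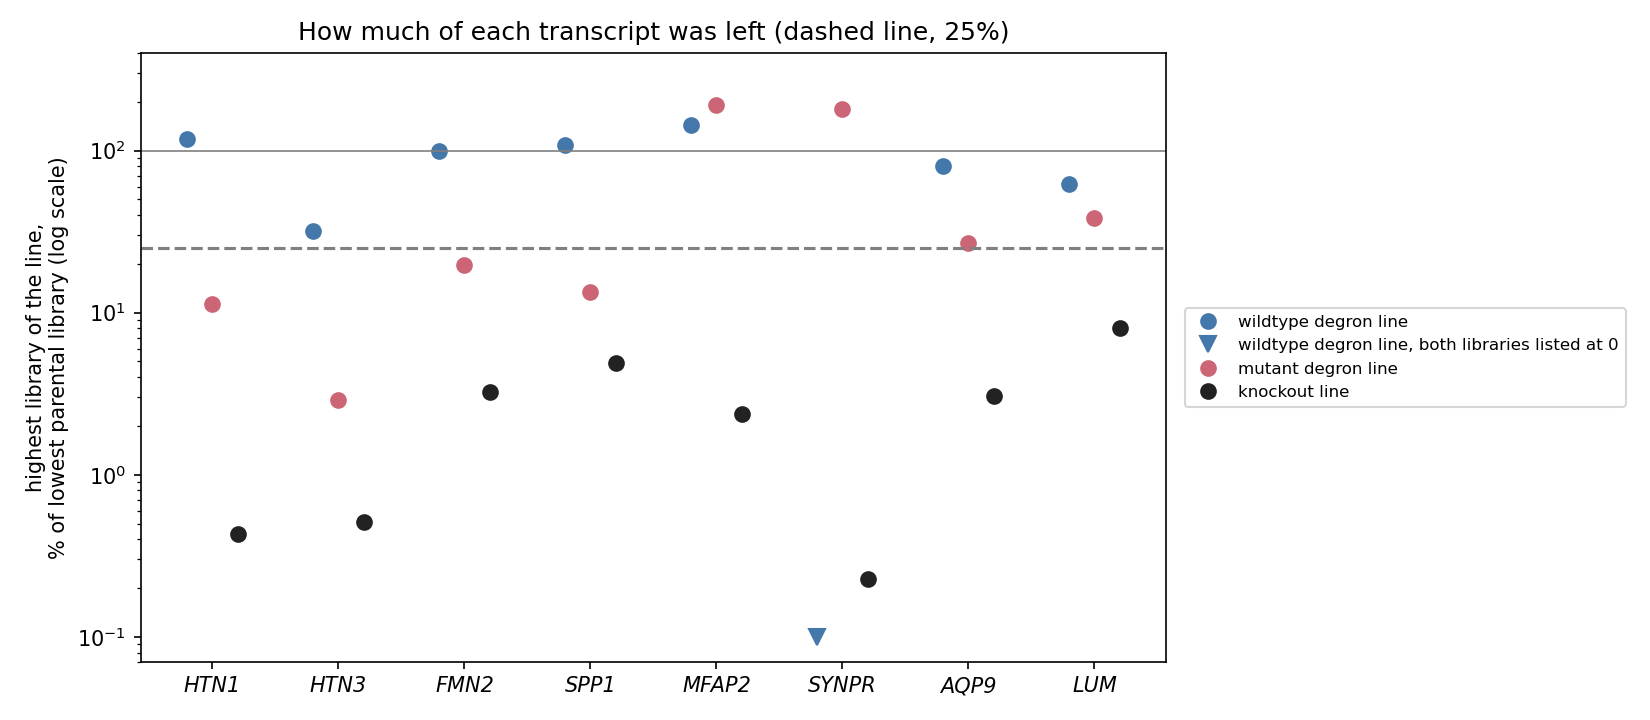
The higher library of each derived line as a percentage of the lower parental library, on a log axis, for the 8 genes; the dashed line is the 25% limit for a loss and the triangle marks SYNPR, listed at 0 in both wildtype degron libraries. All 8 knockout points lie under the limit, the highest being LUM at 8.04%, and AQP9 lies just over it in the mutant degron line at 26.9%.

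By size of the log2 difference, the genes ranked 1 to 5, 9, 11 and 21 among 29188 names in the knockout line, and SYNPR ranked 2 in the wildtype degron line. The order depends on the pseudocount: with 0.1 in place of 1 the knockout differences were -8.24 for HTN1, -7.46 for HTN3 and -7.39 for SYNPR, ahead of -5.38 for FMN2, -5.36 for MFAP2, -5.26 for AQP9 and -5.01 for SPP1. Names that lay between them and were not picked included SNORA22, a small nucleolar RNA listed at 0 in all 6 derived libraries (rank 6), LGALS3, which encodes galectin-3 (-4.02, rank 12), and APOC1, an apolipoprotein gene (-3.92, rank 14). Next to LUM (-3.29) were MME, a membrane metalloendopeptidase (-3.30), and CPN1, a carboxypeptidase subunit (-3.29).

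Across the 8 libraries HTN1, FMN2, SPP1, AQP9 and LUM varied together, with Pearson r of log2 levels between 0.926 for SPP1 with LUM and 0.991 for HTN1 with FMN2. SYNPR was the least like the others, with r between 0.169 (SPP1) and 0.569 (MFAP2). These are descriptions over 8 libraries in 4 pairs that share a line. The genes were picked on falls in these same libraries, which favours a high r between them, so nothing is read from it. Among 10613 names with a highest value of at least 5, those most like 7 of the genes were LRAT, a retinol-esterifying enzyme, for HTN1 (r = 0.996, after the unnamed uc021uls.1), PCBD1 for HTN3 (0.989) and ITGB1BP3, also named NMRK2, for FMN2 (0.998). For SPP1 it was INPP5F (0.996), for MFAP2 the acid phosphatase gene ACP5 (0.996), for AQP9 BCAS3 (0.998) and for LUM the melanocyte antigen gene MLANA (0.993). A high r does not mean an equal change: PCBD1 was at 91.6 and 91.8 in parental cells and still at 48.1 and 46.5 in the knockout line, and MLANA went from 2283 and 1824 to 723 and 703.

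The response to Shld withdrawal is the contrast that the choice of genes did not use. In the model over all 8 libraries with line as a covariate (limma, 12921 loci), 0 of the 8 genes passed at an adjusted p of 0.05, and 0% of all loci did, with 651 loci at an unadjusted p below 0.05. The model averages lines with and without a destabilising domain, with 3 residual degrees of freedom. Adjusted p-values for the 8 genes lay between 0.81 and 0.90, and coefficients between -0.25 ± 0.12 (standard error) for FMN2 and 0.18 ± 0.19 for SPP1. Separate cultures are not stated, so p-values measure only the spread between these libraries.

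Within lines, differences with withdrawal are between 1 library and 1 library and have no test. FMN2 was at 0.607 times its level with Shld in parental cells and at 0.990 times in the wildtype degron line. HTN3 was at 0.625 times in the wildtype degron line. LUM was at 0.698 times in parental cells and at 1.26 times in the mutant degron line. SPP1 was at 2.04 times in the knockout line and at 0.81 times in parental cells. The lines with a loss differed from parental cells by -2.71 to -7.38 on the log2 scale, and no Shld difference within a line exceeded 0.96 in size. The genes were picked on the first of these differences and not on the second, so the 2 sizes are not compared.

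**Figure D3:**
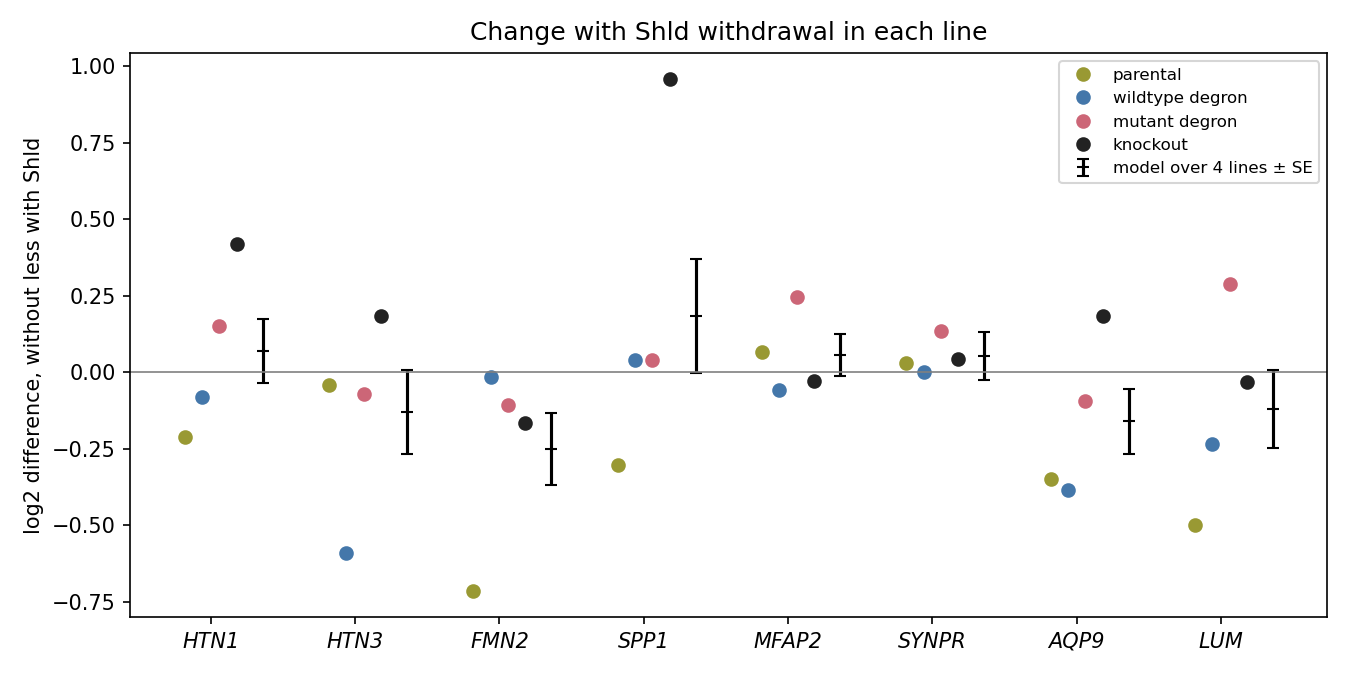
Log2 difference between the library without and the library with Shld in each line (dots), and the model coefficient over the 4 lines with its standard error (black), for the 8 genes. The highest dot is SPP1 in the knockout line at 0.96 and the lowest FMN2 in parental cells at -0.72, and both signs occur among the lines for 6 of the 8 genes, all but FMN2 and SYNPR.

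Some genes beside the 8 on their chromosomes were also lost in the knockout line. By the limit for a loss, none of them was lost in exactly the same set of lines as the gene of the 8 it lies near. For LIPC beside AQP9 this rests on the limit. LIPC was lost in the mutant degron and knockout lines, and AQP9 stood just over the limit in the mutant degron line (26.9%). With means of the 2 libraries, or without the parental library lacking Shld, AQP9 was lost there too. HERC6 and STATH were lower on the log2 scale in the mutant degron line (-0.98 and -0.64) without a loss. Up to 5 named protein-coding genes in the table were taken on each side in RefSeq gene order, 70 in all beside the 8 themselves, of which 37 had a parental mean of at least 1. Of these 37, 3 were lost in the knockout line (STATH, HERC6 and LIPC), 1 in the mutant degron line (LIPC) and 0 in the wildtype degron line, against 1.7%, 0.713% and 0.275% of all names with such a parental mean. Median log2 differences of the 37 were 0.04, 0.05 and -0.10 in the knockout, mutant degron and wildtype degron lines.

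Around the histatins, 9 of 10 neighbours were below 1 in every library, among them the casein genes CSN1S1, CSN2 and CSN3. The exception was STATH, the gene of the salivary calcium-binding peptide statherin next to HTN3, listed at 2.12 and 0.885 in parental cells and at 0 in both knockout libraries. On the same chromosome, HERC6, an E3 ligase family gene and the fourth gene after SPP1 in this order, went from 3.91 and 3.93 in parental cells to 0.57 and 0.789 in the knockout line. PKD2, the polycystin gene directly after SPP1, was higher in the knockout line (+1.08).

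Beside AQP9, LIPC, the hepatic lipase gene, was listed at 1.15 and 1.03 in parental cells, 0.166 and 0.117 in the mutant degron line and 0.0424 and 0.117 in the knockout line. The next gene, ADAM10, a membrane protease, differed by -0.81 in the knockout line. Of the 7 measured neighbours of MFAP2 the lowest knockout difference was -0.70 (SDHB, a succinate dehydrogenase subunit), and of the 6 of SYNPR it was -0.23 (THOC7) in the knockout line and, for the same gene, -0.93 in the wildtype degron line. Around LUM, the proteoglycan genes KERA and EPYC were listed at 0 throughout and DCN did not exceed 0.273, while BTG1, an antiproliferative gene, was higher in the knockout line (+1.46). The 3 measured neighbours of FMN2 differed by -0.09 to +0.77 there.

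**Figure D4:**
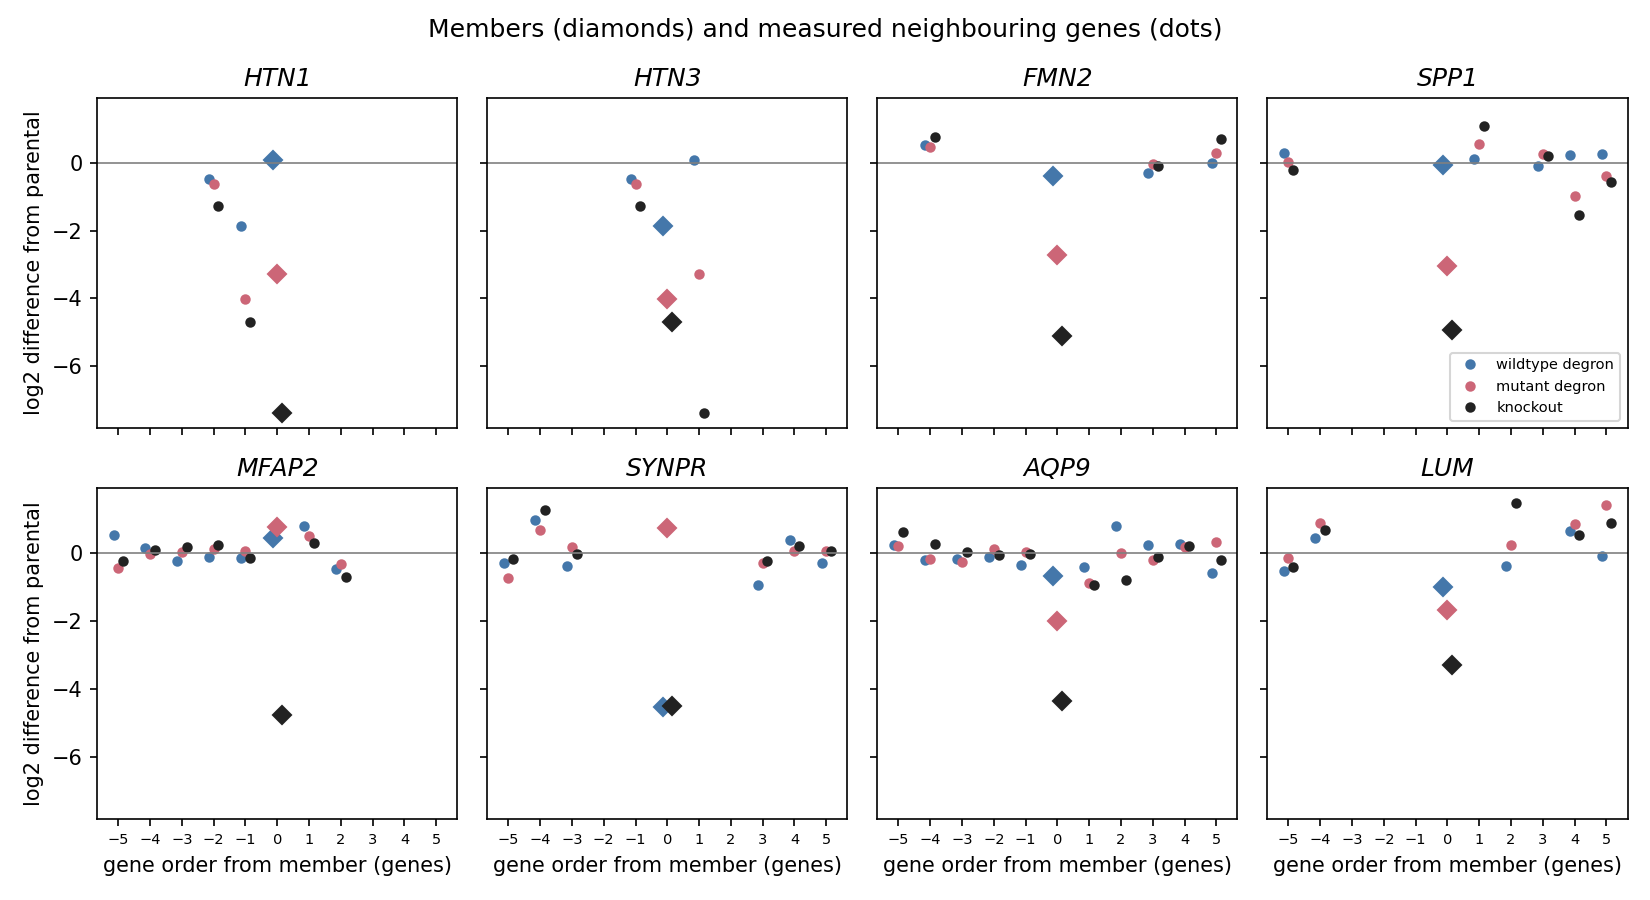
Log2 difference of each derived line from parental cells for the 8 genes (diamonds at 0) and for measured neighbours with a parental mean of at least 1 (dots), by position in gene order. In the knockout line the diamonds lie below the dots of neighbours outside the 8 genes, and in the degron lines several diamonds lie among or above them; neighbours as low as -1.28 (STATH) and -1.55 (HERC6) appear beside the histatins and SPP1 in the knockout line, and HTN1 and HTN3 are each other's neighbours.

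Related genes gave no uniform picture. Of 12 other genes of the histatin cluster 10 were below 1 in every library, and MUC7, a salivary mucin gene, was tested. It was listed at 5.42 and 6.97 in parental cells, 2.52 and 2.22 in the mutant degron line and 0.175 and 1.68 in the knockout line, and fell in both lines (-1.09 ± 0.29 and -2.01 ± 0.29, limma, adjusted p = 0.040 and 0.0029). In the same model 34.7% of all loci passed in the knockout line, 20.7% in the mutant degron line and 37.5% in the wildtype degron line, so a gene that passes is common here. By direction, 15.6% of loci were higher and 19.1% lower in the knockout line, 9.08% and 11.6% in the mutant degron line, and 18.2% and 19.3% in the wildtype degron line. The residual spread in it comes from how the Shld difference varies between lines.

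Most of the tested receptors of osteopontin rose in each derived line. Of 9 receptor genes 4 were below 1 in every library. Of 5 tested, 4 rose and 0 fell in the knockout line, 4 rose in the mutant degron line and 5 in the wildtype degron line, with medians of 0.86, 0.90 and 0.46, against -0.04, -0.04 and -0.01 over all loci. CD44 was listed at 198 and 248 in parental cells and at 462 and 488 in the knockout line (+1.09 ± 0.11, limma, adjusted p = 0.00081). ITGB1, the integrin beta 1 subunit, rose by 1.08 in the knockout line (adjusted p = 0.00098), and ITGA5 rose most in the mutant degron line (+1.21, adjusted p = 0.0017). ITGA9, an integrin alpha subunit, rose in the wildtype degron line (+1.07, adjusted p = 0.0095) and did not pass in the mutant degron and knockout lines (-0.59 and +0.02, adjusted p = 0.090 and 0.94). The direct relatives of SPP1 in the SIBLING family, DSPP, DMP1 and IBSP, were listed at 0 in all libraries.

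Among small leucine-rich proteoglycans other than LUM, 12 of 14 were below 1 throughout, and of 2 tested BGN, which encodes biglycan, rose in all 3 derived lines. It was listed at 13.3 and 17.2 in parental cells and at 39.9 and 32.5 in the knockout line (+1.20 ± 0.15, limma, adjusted p = 0.0015). Of 7 elastic fibre and microfibril genes tested other than MFAP2, 3 rose and 0 fell in the knockout line, 2 rose and 1 fell in the mutant degron line, and 4 rose in the wildtype degron line. FBN2, which encodes a fibrillin of the microfibrils, rose in all 3 lines, most in the knockout line (+1.75 ± 0.16, adjusted p = 0.00048), where it was listed at 6.05 and 5.99 against 0.902 and 1.28 in parental cells.

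All 16 other formin, Spire and profilin genes were tested. In the knockout line 2 rose and 4 fell, in the mutant degron line 1 rose and 3 fell, and in the wildtype degron line 4 rose and 3 fell, with medians of 0.02, -0.09 and 0.17. FMNL1, a formin of blood cells, fell in the mutant degron and knockout lines (-1.22 and -1.85, limma, adjusted p = 0.0021 and 0.00019). FMN1, the paralogue of FMN2, rose in the wildtype degron line (+1.11, adjusted p = 0.0065), and its values of 0.19 and 0.09 in the knockout and mutant degron lines did not pass.

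Of 12 other aquaporin genes, 9 were below 1 in every library. AQP1, a water channel, was the one tested and stood at 6.12 and 6.13 in parental cells and 6.61 and 5.61 in the knockout line, where it did not pass (-0.01, limma, adjusted p = 0.98), and it fell in the mutant degron line (-0.51, adjusted p = 0.026). Of 10 genes of the synaptophysin and synaptogyrin families and vesicle partners 4 were tested. VAMP2, a vesicle SNARE, fell in the knockout and mutant degron lines (-1.13 and -0.90, adjusted p = 0.0020 and 0.0089), and SV2A, a vesicle glycoprotein, rose in the wildtype degron line (+0.69, adjusted p = 0.0040).

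Pigment cell genes moved in these lines as well. Of 11 melanocyte genes 8 fell and 0 rose in the knockout line, 4 fell in the mutant degron line, and 6 rose and 1 fell in the wildtype degron line. OCA2, a melanosome transporter gene, was listed at 24.4 and 27.6 in parental cells, 71.1 and 67.1 in wildtype degron cells, 7.84 and 9.57 in mutant degron cells and 5.40 and 5.42 in the knockout line. Its sum with the other 10 ran from 12174 to 13219 in parental cells, 14643 to 15916 in wildtype degron cells, 7729 to 9351 in mutant degron cells and 6716 to 7460 in the knockout line. Their part in the losses described here was not tested.

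LUM, SPP1 and AQP9 are also known from fibroblasts or macrophages, so markers of other cell types were listed. Other markers planned for these 2 types, among them COL1A1, COL3A1, PDGFRA, CD14 and CSF1R, are not reported here. Of 6 fibroblast genes 3 were below 1 in every library, namely COL1A2, DCN and THY1, with THY1 at 0 throughout. FAP, too low to be tested, stood at 1.03 and 0.824 in parental cells and at 0.113 and 0.157 in the knockout line. The sum of the 6 was 77.4 and 77.5 in parental cells, 140 to 156 in wildtype degron cells, 88.4 to 108 in mutant degron cells and 14.7 to 18.5 in the knockout line. In parental cells it rested mostly on POSTN, the matrix gene periostin, at 69.0 and 69.9, which fell in the knockout line (-2.77 ± 0.16, limma, adjusted p = 9.8e-05). TWIST2, the other of 2 tested, stood at 7.14 and 6.54 in parental cells and at 7.00 and 6.72 in the knockout line. It did not pass there (+0.004, limma, adjusted p = 0.99). Of 6 macrophage genes CD163, AIF1 and TYROBP were at 0 in all 8 libraries and MSR1 did not exceed 0.0164. PTPRC stood between 0.232 and 1.22 and CD68, a lysosomal gene, between 638 and 833, and the macrophage sum ran from 744 to 769.7 in parental cells and from 803 to 834 in the knockout line.

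Of 9 epithelial and salivary genes 8 were below 1 in every library, with AMY1A, PRB1 and BPIFA2 at 0, and the exception was STATH. Their sum was 2.66 and 1.48 in parental cells and 0.0364 and 0.125 in the knockout line. Of 9 neuronal genes 5 were below 1 in every library. The neuronal sum was 209.8 to 210.3 in parental cells and 372 to 386 in the knockout line. Of 4 tested, 2 rose there. MAP2, which encodes a microtubule-associated protein, stood at 113 and 92.1 against 12.4 and 14.04 in parental cells. TUBB3, the largest part of the sum, stood at 255 and 261 against 179 and 181. RBFOX3 and NEFL did not pass in the knockout line (+0.15 and -0.21, limma, adjusted p = 0.50 and 0.49). In bulk libraries fewer cells that express a gene and less RNA per cell cannot be told apart, for these genes and for the 8.

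Promoter windows of RefSeq (250 bases before to 50 after the start site, GRCh38.p14) were matched for 7 of the 8 genes, in 10 windows; LUM had no entry. Each of 5 short sequences was searched on both strands, and no matches overlap in these windows. CATGTG, the core of a site bound by MITF family factors, was in the windows of HTN1 and HTN3 and in 11.1% of all 35116 windows. TGANTCA, the AP-1 type sequence, was once in that of HTN1 and at 2 places in 1 of 2 windows of MFAP2, and in 7.71% of all windows. The HTN1 match, at bases 6 to 12, lies in the stretch outside the HTN3 window, so the matching place of HTN3 was not searched. GGAATG was in 1 of 2 windows of AQP9 (14.03% of all windows). CACGTG was in none of the 10, and neither was TATAAA (7.26% and 11.5% of all windows). The 250 bases before the MFAP2 start site (chr1:16981584-16981833, minus strand, GRCh38.p14) are shown since MFAP2 had the opposite direction in the degron and knockout lines, with the TGANTCA matches in capitals.
MFAP2: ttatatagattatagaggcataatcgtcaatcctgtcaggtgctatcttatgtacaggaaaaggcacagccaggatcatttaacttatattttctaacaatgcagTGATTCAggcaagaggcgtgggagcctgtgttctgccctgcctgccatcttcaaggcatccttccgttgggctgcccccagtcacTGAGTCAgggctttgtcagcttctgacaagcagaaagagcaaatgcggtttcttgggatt
A match is a description of letters and is not a site, and binding was not measured.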

How the data were processed

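RNA of 8 MEL202 libraries was prepared with TruSeq kits and sequenced as paired reads of 100 bases, per the labels' protocols. TopHat, Cufflinks and hg19 are named in the submitters' processing notes; their versions, the annotation and any use of strand were not given in the sources used here. Deposited was 1 table, with 32087 loci in FPKM, rescaled by the authors to 10 at the 75th percentile; that FPKM was the input is inferred from Cufflinks and the values. Columns were matched to samples by name.

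Log2(value + 1) was fitted with limma 3.58.1 in R 4.3.3 (line and Shld state as terms, 8 libraries, 3 residual degrees of freedom, mean-variance trend) for 12921 loci whose mean over libraries reached 1, and p-values were adjusted by Benjamini-Hochberg over all of them. Each combination of line and Shld state has 1 library, so the line is the pairing block of the Shld test. The fit was tested on simulated data. Losses were counted on the deposited values.

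The 8 genes, the gene lists and the tests were chosen with earlier results of these data known. Named besides them are the most alike genes by Pearson r (that for SYNPR is not reported here), up to 4 genes of each list with the largest difference, and neighbours that were lost; other names were chosen after their values were seen. Alternatives were another pseudocount, level filters, 2 scalings, left-out libraries and other limits for a loss. RefSeq gene order and sequence on GRCh38.p14 were matched by symbol; sequence of LUM was not used here.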

Additional observations from a re-analysis of the deposited data

Results flagged for a closer look

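Against parental cells, MFAP2 and SYNPR moved in opposite directions in different lines, with both libraries of 1 line above and both of another below both parental libraries. For MFAP2 the wildtype degron line exceeded the knockout line by 5.21 on the log2(value + 1) scale and the mutant degron line exceeded it by 5.54. For SYNPR the mutant degron line exceeded the wildtype degron line by 5.28 and the knockout line by 5.23. These differences were not tested, since the genes were picked on the same contrast.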

How the results depend on the processing

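Genes called lost in a line kept their direction under every alternative run for that difference: over 13 such results and 104 values the highest was -2.40 on the log2 scale. With single libraries left out or another pseudocount, the rule for a loss fixes the direction in advance. The genes were also picked on these falls, so the kept direction is no separate support for them. The count of lost genes in the knockout line stayed at 8. In the wildtype degron line it was 1 to 2 with single libraries left out (HTN3 added without the library with Shld) and 2 with a limit of 50%. In the mutant degron line it was 1 with a limit of 10% (HTN3), 6 with a limit of 50% (AQP9 and LUM added), 5 with means of the 2 libraries (AQP9 added), and 4 to 5 with single libraries left out (AQP9 added without the parental library lacking Shld). With single libraries left out, loci called ran from 16 (without the wildtype degron library with Shld) to 4716 in the wildtype degron line, 556 (without the mutant degron library with Shld) to 2435 in the mutant degron line, 2063 (without the parental library with Shld) to 4117 in the knockout line, and 0 to 1 for Shld. Without a level filter the mutant degron line had 1625. For Shld, 1 locus passed with a pseudocount of 0.1 and 2 in the degron lines alone.

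The Shld coefficient changed sign for HTN3 with a pseudocount of 0.1 (0.093) and for LUM in the degron lines alone (0.027). With single libraries left out it ran from -0.048 to 0.16 for HTN1, -0.23 to 0.023 for HTN3, -0.075 to 0.35 for SPP1, -0.0077 to 0.093 for MFAP2 and -0.25 to 0.0072 for LUM. The lowest adjusted p over 120 settings was 0.50. Without the line as pairing block 0 loci passed for Shld, and without the Shld block 4941, 2841 and 4520 passed for the wildtype degron, mutant degron and knockout lines. Exact depth is unknown, so values near 0 have no counting interval.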
